A study of Mus musculus with 6 samples.

Results

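TGF-beta, activin and BMP signalling was followed here through 65 genes of the 48321 in the deposited table of mouse islet RNA, taken by gene name: the ligands, their secreted antagonists, the receptors, the SMADs and the regulators and ID targets closest to them. Of these, 47 averaged at least 0.5 CPM (reads scaled to the depth of the library) and were tested, and 18 lay below that level. High-fat islets came from wild-type C57BL6 mice that entered the feeding period at 3 months of age and then received 60 kcal% fat for 4 months. Chow islets came from wild-type C57BL6 mice on normal chow, for which the labels used here give neither an age nor a feeding time. There were 3 high-fat libraries and 2 chow libraries, since the column of the remaining chow sample is the average of the other two and holds no measurement of its own. Nothing in the labels tells whether samples came from separate or pooled animals, so p-values cover only how far these samples scatter, a scatter that can be technical. The comparison asks how islet transcript levels of the pathway differ between the diets.

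The ligands of this family are secreted dimers. TGF-betas, activins and BMPs each bind a pair of type I and type II serine/threonine kinase receptors. The type I receptor then phosphorylates receptor-regulated SMADs, Smad2 and Smad3 for TGF-beta and activin and Smad1, Smad5 and Smad9 for BMPs, which enter the nucleus with Smad4. Smad6 and Smad7 are transcribed in response to the signal and block it at the receptor, and secreted antagonists trap the ligands outside the cell. In the islet, activins and BMPs are known as regulators of endocrine cell differentiation, beta-cell mass and insulin secretion.

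Of the 47 tested genes, 7 rose and 6 fell in high-fat islets at a limma adjusted p below 0.05 (Benjamini-Hochberg over all 16939 genes tested), and 34 passed in neither direction. The same test called 14.9% of all genes higher and 8.78% lower. Among the members 14.9% were higher and 12.8% lower, both near the shares of all genes. The 7 that rose were the inhibitory SMADs Smad6 and Smad7, the activin subunits Inhbb and Inhba, the decoy receptor Bambi, the protease Bmp1 and Smad1. The 6 that fell were the ligands Gdf10 and Bmp6, the receptors Tgfbr2, Acvr1c and Bmpr1a, and the ubiquitin ligase Smurf2. On the scale log2(CPM + 1), the fold change had a median of -0.10 over the 47 and 0.05 over all genes. It ran from -2.13 to 4.41. The 3 high-fat libraries lay outside the range of both chow libraries in 24 members (51.1%), 8 of them higher and 16 lower, against 55.4% of all genes (32.8% higher and 22.5% lower).

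**Figure D1:**
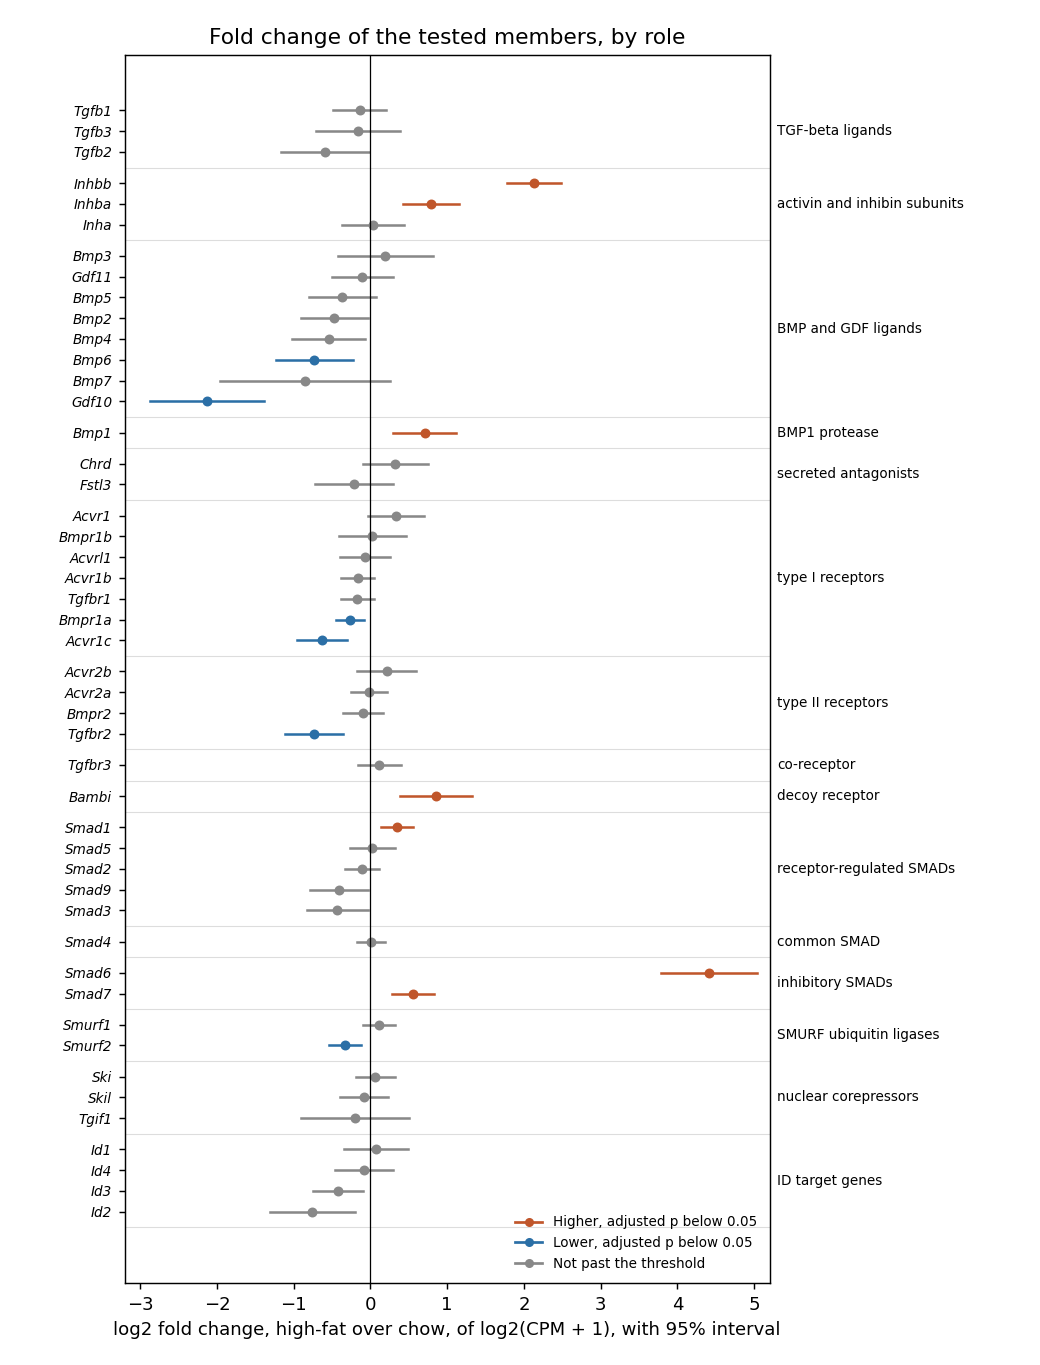
Log2 fold change (high-fat over chow, limma) of the 47 tested members with its 95% confidence interval, grouped by role, with the members that passed adjusted p 0.05 set apart by colour. Smad6 at 4.41 and Inhbb at 2.13 stand at the upper end and Gdf10 at -2.13 at the lower end, while most members lie near 0.

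Of the 13 called members, Smad6 and Inhbb kept their call in all 16 alternative settings, and Gdf10 kept it in 15. The counts of 7 higher and 6 lower became 4 and 3 when high-fat replicate 1 was left out, 3 and 1 when replicate 2 was, and 4 and 2 when replicate 3 was. Leaving out chow replicate 1 or 3 left 1 chow library. The log2 fold changes of the 13 called members kept their signs in both fits, but the members that passed there were not all among these 13. With no filter, which takes the adjustment over all names of the table, 2 rose and 0 fell, and 2 rose and 1 fell once the acinar score was a covariate. The counts also followed the scaling: when the library size was summed over the genes other than acinar and insulin genes (the reduced library size below), the median of all genes moved to -0.43 and the members counted 3 higher and 32 lower. Measured from that median, the 13 called members kept their directions there. With the reduced library size Inhba lay 0.89 above it (0.74 with the deposited CPM), while Bmp6 lay at -0.72 (-0.78), Tgfbr2 at -0.83 (-0.78), Acvr1c at -0.73 (-0.69), Bmpr1a at -0.40 (-0.32) and Smurf2 at -0.46 (-0.38). Bmp1, Bambi, Smad7 and Smad1 are given in their paragraphs.

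The libraries differed in more than the diet. The 5 small structured RNAs of the marker lists, which lack a poly(A) tail, summed to 31337, 26502 and 20791 CPM in the high-fat libraries and to 9.12 and 16 CPM in the chow libraries, and sample names change prefix with the diet, so library type and diet cannot be told apart for any gene below. Acinar enzyme genes took 13.3%, 1.80% and 5.37% of the summed gene CPM in high-fat islets and 35.2% and 13.3% in chow islets. Fibroblast markers were lower in high-fat islets in 9 of 13 genes, with sums of 157, 182 and 198 CPM in high-fat and 381 and 285 CPM in chow libraries. Endothelial markers fell in 3 of 11 genes, with sums of 343, 419 and 402 CPM in high-fat and 438 and 513 CPM in chow libraries, and ductal markers fell in 3 of 8 and rose in 1. Of 11 leukocyte markers 1 rose and 0 fell, and of 15 endocrine markers 3 rose and 0 fell. Over all genes 14.9% rose and 8.78% fell. The endocrine genes, which check the label of islet tissue, made up 9.10% to 14.2% of the summed CPM in every library. Within that sum the chow libraries differed. Gcg measured 10102 and 2332 CPM and Ppy 854 and 2907 CPM in chow replicates 1 and 3, while Sst measured 869 and 927 CPM. In high-fat libraries Gcg ran from 10523.5 to 11991.8 CPM and Ppy from 935 to 1147 CPM. The sum alone thus does not give the mix of endocrine cells. In a tissue of mixed cells, fewer cells of a type and less RNA per cell cannot be told apart, and the part of these shifts in the results below was not tested.

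**Figure D2:**
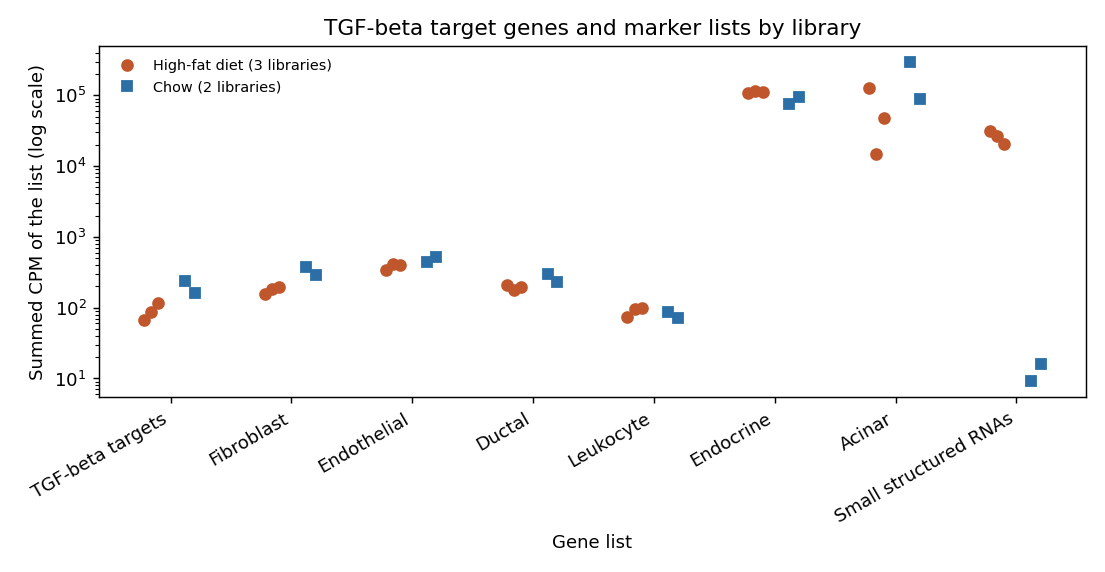
Summed CPM of the TGF-beta targets, each cell type marker list and the small structured RNAs in each library (log axis). Each point is 1 of the 3 high-fat or 2 chow libraries. The fibroblast sums of 157 to 198 CPM in high-fat libraries lie below the chow sums of 285 and 381 CPM, whereas the leukocyte sums of both diets overlap.

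The activin subunits gave the clearest change among the ligands. Inhbb encodes the beta-B subunit, which forms activin B as a homodimer and inhibin B with the alpha subunit Inha. It measured 33.6, 29.7 and 30.2 CPM in the high-fat libraries and 7.64 and 5.22 CPM in the chow libraries. Every high-fat library was well above both chow libraries, and the high-fat values lay close together. The means were 31.2 ± 2.15 CPM (SD, n = 3) in high-fat and 6.43 ± 1.71 CPM (SD, n = 2) in chow islets, a ratio of 4.84 on the linear scale. This gave a log2 fold change of 2.13 ± 0.15 (SE), with a 95% confidence interval of 1.77 to 2.49 and adjusted p = 0.000214. It stayed between 1.61 and 2.37, with adjusted p of at most 0.0366, in all 16 alternatives.

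Inhba, whose beta-A subunit forms activin A, changed in the same direction by less. It measured 2.49, 2.28 and 2.30 CPM in high-fat and 0.798 and 1.09 CPM in chow libraries, without overlap. Its log2 fold change was 0.79 ± 0.15 (95% interval 0.43 to 1.15, adjusted p = 0.0136). Its call ended without chow replicate 1 (adjusted p = 0.0715), with no filter (0.0636) and with an acinar covariate (0.0677), within a range of 0.0014 to 0.0715 over its alternatives.

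Inha, the alpha subunit that turns a beta subunit from activin to inhibin, measured 8.31, 11.9 and 8.68 CPM in high-fat and 8.61 and 9.97 CPM in chow libraries. The diets overlapped, and the log2 fold change of 0.03 ± 0.17 had an interval of -0.37 to 0.43 (adjusted p = 0.901). Per kilobase of exon, the level of Inhbb relative to Inha was 1.403, 0.865 and 1.21 in high-fat islets and 0.308 and 0.182 in chow islets. Transcripts of the 2 subunits were thus at similar length-corrected levels in the high-fat libraries, and Inhbb was the scarcer in both chow libraries. Inhbc and Inhbe, known mainly from liver, did not exceed 0.0879 CPM in any library, and both were under the level of 3 reads in nearly all of them.

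BMP and GDF ligands were mostly low, and those that changed fell. Of 20 ligands in this class 8 were tested, of which 0 rose and 2 fell (25%, against 8.78% of all genes), and their median log2 fold change was -0.51. Gdf10, also known as BMP3B, measured 1.18, 1.64 and 2.81 CPM in high-fat and 15.5 and 8.12 CPM in chow libraries. All 3 high-fat values were far below both chow values. Its log2 fold change was -2.13 ± 0.32 (95% interval -2.88 to -1.38, adjusted p = 0.00532), and it was not called with no filter (0.118). The 13 fibroblast markers, 9 of them called lower, had a median log2 fold change of -1.48 in the same libraries, and their part in the fall of Gdf10 was not tested.

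Bmp6, a BMP that in the liver is made by endothelial cells and regulates hepcidin, measured 1.15, 2.10 and 2.24 CPM in high-fat and 3.88 and 3.39 CPM in chow libraries. The groups did not overlap, and the log2 fold change was -0.73 ± 0.21 (95% interval -1.24 to -0.23, adjusted p = 0.0474). The call ended when any library was left out: adjusted p was 0.0826, 0.0859 and 0.0704 without high-fat replicates 1, 2 and 3, and 0.184 and 0.0845 without chow replicates 1 and 3. Txndc5, which overlaps it on the opposite strand, was higher in high-fat islets (adjusted p = 0.0232), and whether the counting used strand is not given.

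The other 6 tested ligands of the class, Bmp2, Bmp3, Bmp4, Bmp5, Bmp7 and Gdf11, lay between 0.193 and 9.67 CPM, with log2 fold changes of -0.85 to 0.19 and adjusted p of 0.0886 to 0.673. A further 12 were below the filter in these libraries: Bmp8a, Bmp8b, Bmp10, Bmp15, Gdf1, Gdf2, Gdf3, Gdf5, Gdf6, Gdf7, Gdf9 and Gdf15. None of these exceeded 0.675 CPM in any library, where 3 reads amount to between 0.0858 and 0.16 CPM. In the fit with no filter their adjusted p ran from 0.476 to 1, the lowest being that of Bmp15, the egg-cell ligand, which was higher in all 3 high-fat libraries than in both chow libraries at 12.5 reads or fewer. Gdf1 shares 100% of its 31-base words with transcripts of Cers1, so reads of the pair cannot be separated by sequence, and Bmp5 and Gdf5 share 46.2% and 39.7% with overlapping genes, which leaves their values uncertain. Gdf15, a secreted marker of cell stress, measured 0.511, 0.234 and 0.389 CPM in high-fat and 0.425 and 0.203 CPM in chow libraries.

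The 3 TGF-beta ligands showed no call. Tgfb1 measured 6.11, 6.88 and 8.05 CPM in high-fat and 7.35 and 8.25 CPM in chow libraries, a log2 fold change of -0.14 ± 0.15 (adjusted p = 0.512). Tgfb2 had 1.65, 2.12 and 2.0 CPM in high-fat and 4.75 and 2.35 CPM in chow libraries. Its high-fat values were all below both chow values, but chow replicate 1 alone stood far off, and the log2 fold change of -0.59 ± 0.24 gave adjusted p = 0.12. Without chow replicate 3 it was -0.98, with adjusted p = 0.0193. Tgfb3 lay between 2.43 and 4.75 CPM (adjusted p = 0.625).

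Bmp1 is not a BMP but a metalloprotease that matures procollagens and cleaves the BMP antagonist chordin. It rose to 89.7, 91.7 and 95.9 CPM in high-fat libraries, against 44.8 and 70.5 CPM in chow libraries. The 3 high-fat values were alike, while the 2 chow values differed from each other more than chow replicate 3 differed from the high-fat libraries. On the log2 scale the fold change was 0.71 ± 0.17 (95% interval 0.29 to 1.12, adjusted p = 0.0289). Without chow replicate 1 the fold change was 0.39. The call ended without high-fat replicates 1, 2 and 3 (adjusted p = 0.071, 0.0831 and 0.0892) and with the reduced library size (0.454, where it lay 0.57 above the median of all genes, against 0.65 with the deposited CPM).

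**Figure D3:**
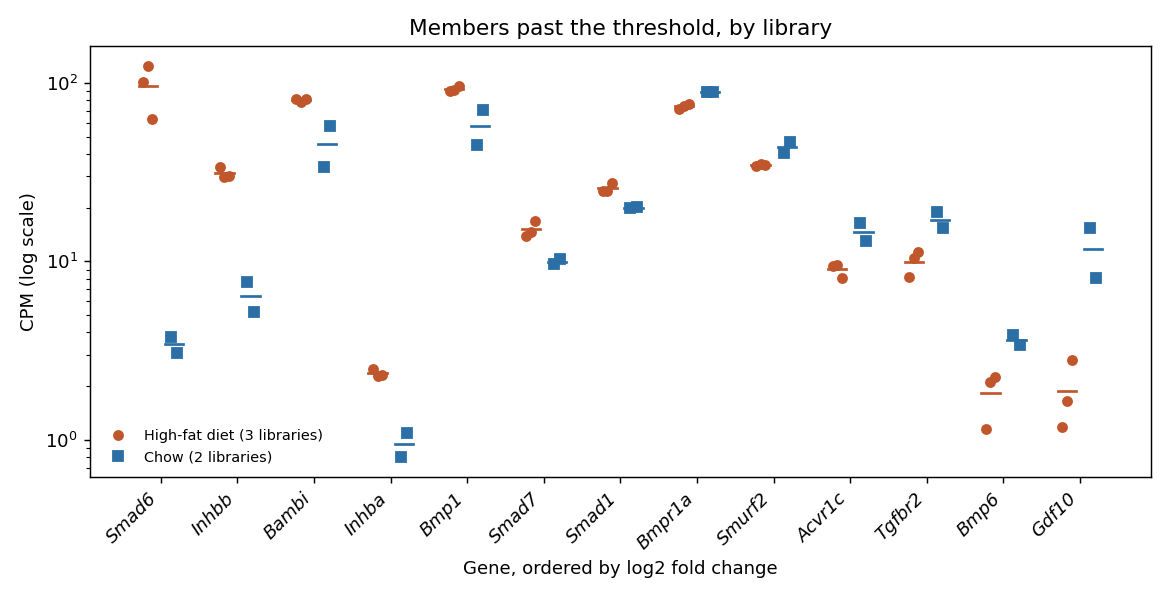
CPM of the 13 called members in each library (log axis), with high-fat points left of chow points and short lines at the group means. Smad6 and Inhbb show the widest gap between the diets, with means of 96.3 and 31.2 CPM in high-fat and 3.43 and 6.43 CPM in chow islets, and Gdf10 the widest in the other direction.

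Secreted antagonists were scarce. Chrd, which encodes the BMP-binding chordin, measured 6.87, 8.17 and 5.42 CPM in high-fat and 4.80 and 5.58 CPM in chow libraries, with overlap (log2 fold change 0.32 ± 0.18, adjusted p = 0.225). Fstl3, an activin-binding follistatin relative, lay between 1.399 and 2.93 CPM (adjusted p = 0.491), and its value is uncertain because 46.7% of its 31-base words occur in an overlapping gene. The remaining 3 were below the filter. Fst, which encodes the activin antagonist follistatin, measured 0.0844, 0.115 and 0.302 CPM in high-fat and 0.568 and 0.405 CPM in chow libraries. The BMP antagonist Nog measured 1.17, 0.808 and 0.337 CPM in high-fat and 0.162 and 0 CPM in chow libraries, and Grem1 did not exceed 0.228 CPM. Fst was lower and Nog and Grem1 higher in all 3 high-fat libraries than in both chow libraries. Over the tested genes 55.4% separated in this way in either direction. These values stand for about 2.0, 4.0 and 7.1 reads of Fst in high-fat and 10.7 and 10.0 in chow libraries, and for 27.7, 28.2 and 7.9 reads of Nog in high-fat and 3.0 and 0 in chow libraries. Grem1 stood at about 3 , 8 and 5 reads in high-fat and 1 and 0 in chow libraries. In the fit with no filter none of these passed (adjusted p = 0.32 for Fst, 0.358 for Nog and 0.18 for Grem1).

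Bambi, a transmembrane pseudoreceptor without a kinase domain that blocks type I receptors, rose. It measured 81.3, 78.4 and 81.8 CPM in high-fat and 33.8 and 57.6 CPM in chow libraries. The high-fat libraries agreed closely and lay above both chow libraries, which were themselves far apart. On the log2 scale the change was 0.85 ± 0.20 (95% interval 0.38 to 1.32, adjusted p = 0.0242). It was 0.48 without chow replicate 1, and the call ended without high-fat replicates 1, 2 and 3 (adjusted p = 0.0677, 0.0697 and 0.0755), with an acinar covariate (0.115) and with the reduced library size (0.202, at 0.72 above the median of all genes). Per kilobase of exon, the level of Bambi relative to the BMP receptor Bmpr1a was 1.42, 1.33 and 1.35 in high-fat islets and 0.477 and 0.805 in chow islets.

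Among the 7 type I and 4 type II receptors, 0 rose and 3 fell (2 type I and 1 type II), beside 14.9% higher and 8.78% lower over all genes. Tgfbr2, the type II receptor that binds TGF-beta, measured 8.19, 10.4 and 11.3 CPM in high-fat and 19.0 and 15.4 CPM in chow libraries, without overlap. Its log2 fold change was -0.73 ± 0.16 (95% interval -1.11 to -0.36, adjusted p = 0.0198). The call ended without chow replicate 1 (0.0983) and high-fat replicate 2 (0.0564). Acvr1c, known as ALK7, a type I receptor for activin B and nodal that is found on beta-cells, measured 9.49, 9.49 and 8.12 CPM in high-fat and 16.4 and 13.0 CPM in chow libraries. All 3 high-fat values lay below both chow values, and the log2 fold change was -0.64 ± 0.14 (95% interval -0.96 to -0.31, adjusted p = 0.0193). The call ended without high-fat replicates 2 and 3 and chow replicate 1 (0.0539, 0.0636 and 0.0916).

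Bmpr1a, a type I BMP receptor and by length-corrected level the most abundant of the receptor kinases, had a small and tight difference. It measured 71.9, 73.8 and 75.7 CPM in high-fat and 88.5 and 89.5 CPM in chow libraries. A log2 fold change of -0.27 ± 0.07 (95% interval -0.44 to -0.09, adjusted p = 0.0423) resulted. The call ended when any single library was left out, with adjusted p of 0.134, 0.129 and 0.101 without high-fat replicates 1, 2 and 3 and 0.0814 and 0.0649 without chow replicates 1 and 3. An antisense gene, Gm17110, overlaps it and measured 1.28, 1.09 and 1.56 CPM in high-fat and 0.0572 and 0.172 CPM in chow libraries.

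The other type I receptors, Tgfbr1, Acvr1, Acvr1b, Bmpr1b and Acvrl1, lay between 7.85 and 52.6 CPM with log2 fold changes of -0.17 to 0.34 (adjusted p from 0.158 to 0.935). Of the type II receptors, Acvr2a, which binds activins, measured 36.7, 33.3 and 32.8 CPM in high-fat and 32.3 and 37.3 CPM in chow libraries. These ranges overlapped, and the fold change of -0.02 ± 0.10 gave adjusted p = 0.914. An exon of Orc4, which was lower in high-fat islets, overlaps it. The BMP receptor Bmpr2 and the activin receptor Acvr2b had log2 fold changes of -0.10 and 0.21 (adjusted p = 0.529 and 0.382). The co-receptor Tgfbr3, or betaglycan, which presents TGF-beta2 and inhibin to type II receptors, measured 39.6, 40.2 and 40.0 CPM in high-fat and 32.1 and 42.0 CPM in chow libraries. The chow values enclosed the high-fat ones, and the log2 fold change of 0.12 ± 0.12 gave adjusted p = 0.496. Without chow replicate 3 it was 0.31. With the reduced library size it was -0.44 and passed as lower (adjusted p = 0.0126), near the median of all genes there (-0.43). The direction of Tgfbr3 thus turned with the setting, and neither direction is taken as its result.

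**Figure D4:**
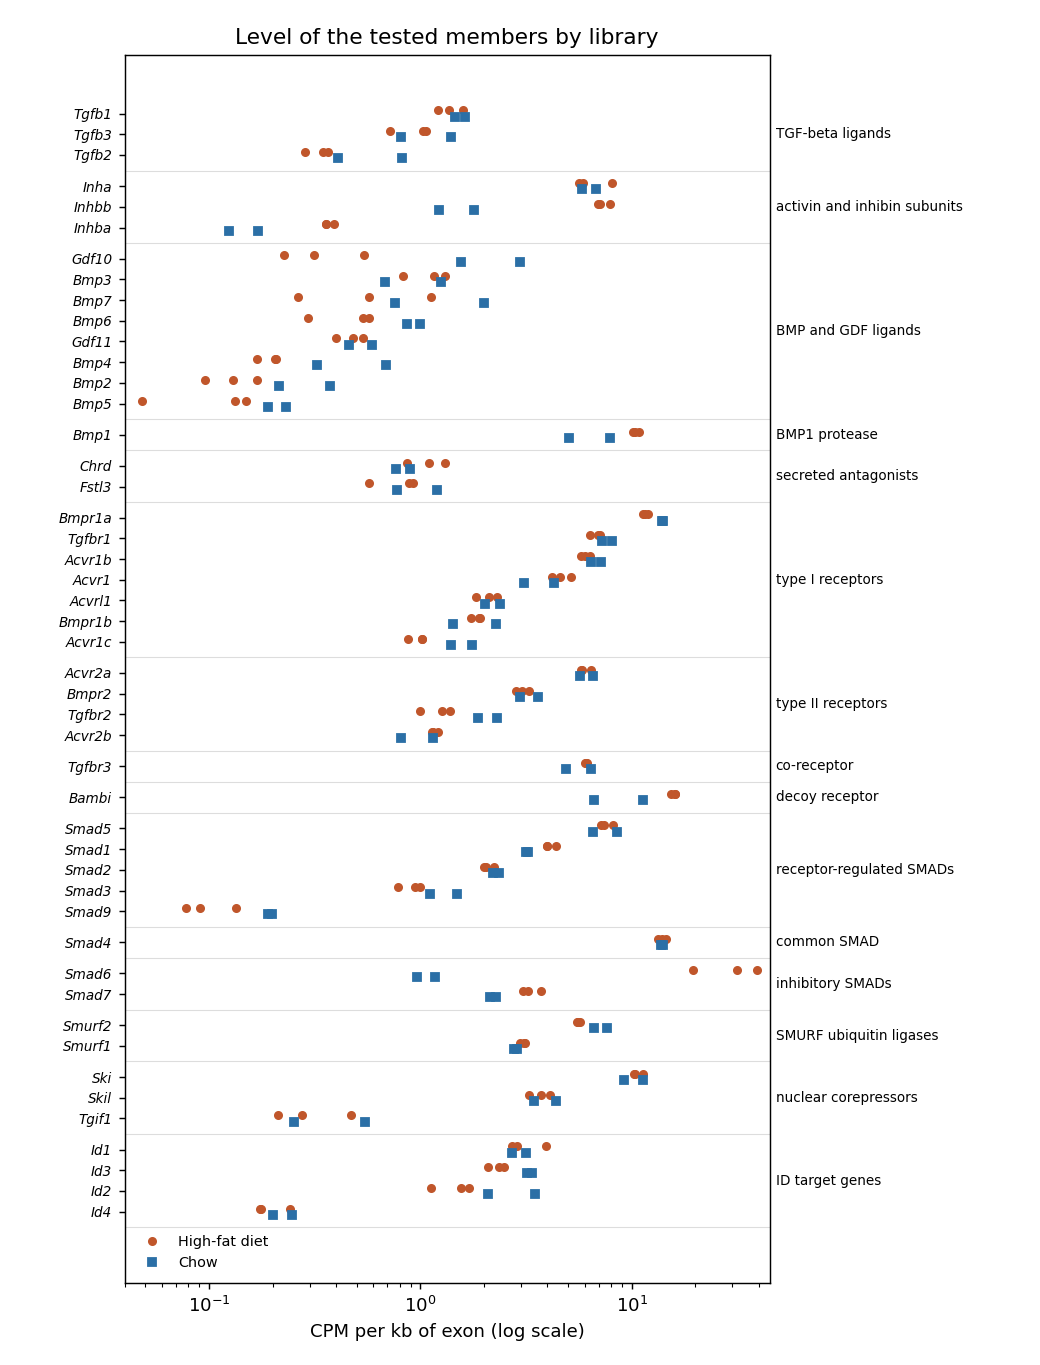
CPM per kilobase of exon (log axis) of the 47 tested members in each high-fat library (circles) and chow library (squares), grouped by role. The mean of Smad6 was 30.03 in high-fat and 1.07 in chow islets, whereas that of Smad4 was 14.0 in high-fat and 13.9 in chow islets.

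Smad6, the inhibitory SMAD that acts chiefly on BMP receptors, had the largest difference of the 47 members. It measured 100.9, 125 and 62.6 CPM in the high-fat libraries and 3.78 and 3.08 CPM in the chow libraries. Even the lowest high-fat library stood far above both chow libraries. The means of 96.3 ± 31.6 CPM (SD, n = 3) in high-fat and 3.43 ± 0.495 CPM (SD, n = 2) in chow islets stood at a ratio of 28.1. The log2 fold change was 4.41 ± 0.26 (95% interval 3.78 to 5.03, adjusted p = 9.22e-05), ranked 62 of 16939 from the top, and ran from 3.91 to 4.68 in the 16 alternatives, with adjusted p of at most 0.0361. Per kilobase of exon it was, with 30.03 CPM, the highest of the members in high-fat islets.

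Smad6 shared its pattern with genes that rose by more in the same libraries. The neuronal genes Pou4f1, Dpysl3 and Adgrb2, which code for a transcription factor, a cytoskeletal protein and an adhesion receptor, were named here after their values had been seen. Pou4f1 measured 1476, 1807 and 1156 CPM in high-fat and 0.342 and 0.212 CPM in chow libraries, and Dpysl3 measured 3873, 3550 and 1719 CPM in high-fat and 11.0 and 12.6 CPM in chow libraries. Adgrb2 measured 327, 352 and 216 CPM in high-fat and 1.23 and 1.60 CPM in chow libraries. In these genes as in Smad6, high-fat replicate 3 was the lowest of the 3 high-fat libraries. The small structured RNAs did not all share this order. Rn7s1 (11503, 9748 and 6398 CPM), Rn7s2 (11503, 9748 and 6398 CPM) and Rmrp (622, 521 and 397 CPM) were lowest in replicate 3, as was the sum of their list. Rn7sk (3626, 3192 and 3935 CPM) and Rpph1 (4082, 3294 and 3663 CPM) were lowest in replicate 2. None of the 3202 words of 31 bases in the Smad6 transcripts occurs in a transcript of another gene of the GENCODE M21 annotation, and no exon of another gene overlaps it. Whether the library type had a part in its level was not tested.

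Smad7, the inhibitory SMAD of both branches, rose by less. It measured 13.9, 14.7 and 16.9 CPM in high-fat and 9.62 and 10.3 CPM in chow libraries, without overlap. The log2 fold change was 0.55 ± 0.12 (95% interval 0.28 to 0.83, adjusted p = 0.0184). The call ended without high-fat replicates 2 and 3 and chow replicate 1 (0.058, 0.0601 and 0.0731). With the reduced library size it was 0.03 (adjusted p = 0.834), which is 0.46 above the median of all genes there. Per kilobase of exon, Smad6 stood to Smad7 at 10.3, 12.1 and 5.22 in high-fat islets and at 0.554 and 0.421 in chow islets, so the order of both inhibitory SMADs differed between the diets.

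The promoters of the members with the largest changes are shown because SMAD binding elements are known in the promoters of genes that answer to the pathway. Windows of 250 bases before to 30 bases after the start, from RefSeq on GRCm38.p6, were found for 46 of the 65 members (58 windows, as some genes have several starts) and were searched on both strands for the palindromic SMAD box GTCTAGAC, the GC-rich BMP element GGCGCC and the CAGA element CAGACA, which do not overlap in the windows printed. Capitals mark the matches. Smad6 lies at chr9:64022030-64022309 on the minus strand, with a SMAD box whose first base is 4 bases before the start. Inhbb lies at chr1:119422219-119422498 on the minus strand, with no match. Gdf10 lies at chr14:33923337-33923616 on the plus strand, with a GGCGCC that begins 16 bases after the start.
Smad6: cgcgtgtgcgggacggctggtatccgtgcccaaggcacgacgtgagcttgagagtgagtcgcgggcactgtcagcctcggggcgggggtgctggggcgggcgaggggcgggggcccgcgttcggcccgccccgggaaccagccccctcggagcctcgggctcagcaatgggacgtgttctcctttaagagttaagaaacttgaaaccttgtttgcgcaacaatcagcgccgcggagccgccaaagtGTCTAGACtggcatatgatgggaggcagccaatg
Inhbb: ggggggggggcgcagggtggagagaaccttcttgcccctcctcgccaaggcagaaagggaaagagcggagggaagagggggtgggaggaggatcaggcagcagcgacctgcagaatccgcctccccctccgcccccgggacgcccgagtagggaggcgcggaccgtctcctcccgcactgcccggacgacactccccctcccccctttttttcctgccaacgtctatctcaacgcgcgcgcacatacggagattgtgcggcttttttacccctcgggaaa
Gdf10: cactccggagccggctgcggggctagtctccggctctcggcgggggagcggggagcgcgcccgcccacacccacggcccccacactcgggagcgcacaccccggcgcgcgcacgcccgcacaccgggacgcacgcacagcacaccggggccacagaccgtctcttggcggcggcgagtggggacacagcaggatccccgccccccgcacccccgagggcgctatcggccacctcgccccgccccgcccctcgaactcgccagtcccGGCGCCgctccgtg
GTCTAGAC was in 1 of the 58 member windows, that of Smad6, and in 0.192% of all 32851 windows of this length. GGCGCC was in 15 of the 58 (25.9%) and in 10.9% of all windows, and CAGACA in 11 of the 58 (19.0%) and in 19.6% of all. Overlapping windows of Smad5 hold the same GGCGCC, which is counted in each. The base composition of the windows was not taken into account in these shares. A match describes the letters and not a site in use.

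Of the 5 receptor-regulated SMADs 1 rose (20%, beside 14.9% of all genes) and 0 fell, and the common SMAD was not called. Smad1, which carries BMP signals, rose slightly. It measured 24.9, 24.9 and 27.5 CPM in high-fat and 19.9 and 20.2 CPM in chow libraries. The groups did not overlap and the log2 fold change was 0.35 ± 0.09 (95% interval 0.14 to 0.56, adjusted p = 0.0314). Its call ended without each library (adjusted p = 0.0734, 0.081 and 0.102 without high-fat replicates 1, 2 and 3, and 0.0913 and 0.0531 without chow replicates 1 and 3) and under both scalings by size factors (0.0611 and 0.0566). With the reduced library size it turned to -0.20 (adjusted p = 0.0887), still 0.23 above the median of all genes, against 0.30 above it with the deposited CPM.

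Smad5, a further BMP SMAD, measured 53.4, 60.6 and 55.1 CPM in high-fat and 48.7 and 63.1 CPM in chow libraries, with a log2 fold change of 0.02 ± 0.12 (adjusted p = 0.915). Smad4, the partner of all receptor-regulated SMADs, measured 49.8, 54.0 and 51.9 CPM in high-fat and 50.9 and 52.3 CPM in chow libraries. Its values were nearly level, and the interval of its log2 fold change, 0.01 ± 0.08, ran from -0.18 to 0.19 (adjusted p = 0.96). Smad2 and Smad3 of the TGF-beta and activin branch and Smad9 of the BMP branch lay between 0.42 and 20.7 CPM, with log2 fold changes of -0.43 to -0.11 and adjusted p of 0.104 to 0.409. Smad3 (-0.43) and Smad9 (-0.41) were lower in all 3 high-fat libraries than in both chow libraries but did not pass (adjusted p = 0.104 and 0.105).

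Downstream regulators were mostly level. Smurf2, a ubiquitin ligase that marks receptors and SMADs for degradation together with Smad7, fell to 34.0, 35.3 and 34.5 CPM in high-fat libraries, against 40.7 and 46.9 CPM in chow libraries. The log2 fold change was -0.33 ± 0.09 (95% interval -0.54 to -0.12, adjusted p = 0.0381). The call ended without high-fat replicates 1, 2 and 3 and chow replicate 3 (0.108, 0.0991, 0.108 and 0.0983). Its relative Smurf1 lay between 17.5 and 19.9 CPM (adjusted p = 0.371). Among the nuclear corepressors, Ski, which binds SMADs and represses their targets, measured 57.4, 57.9 and 63.2 CPM in high-fat and 51.2 and 62.9 CPM in chow libraries (log2 fold change 0.07 ± 0.11, adjusted p = 0.685). Tgif1 measured 2.66, 1.55 and 1.19 CPM in high-fat and 3.08 and 1.42 CPM in chow libraries (-0.20 ± 0.30, adjusted p = 0.652). Skil was at 31.6 to 42.5 CPM (adjusted p = 0.684), and Tgif2 was below the filter with at most 0.513 CPM and shares 70.4% of its words with an overlapping gene.

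The 4 ID genes code for inhibitors of basic helix-loop-helix factors and are known as BMP targets. None of them was called. Id1 measured 3.33, 3.14 and 4.55 CPM in high-fat and 3.67 and 3.16 CPM in chow libraries (log2 fold change 0.07 ± 0.18, adjusted p = 0.793). Id2 measured 2.74, 3.79 and 4.14 CPM in high-fat and 8.56 and 5.10 CPM in chow libraries. Its groups did not overlap, and its log2 fold change of -0.76 ± 0.23 (95% interval -1.31 to -0.21) missed the threshold with adjusted p = 0.0558. It passed in 6 of 16 alternatives, among them the fit without chow replicate 3 (-1.08, adjusted p = 0.0212). Id3 and Id4 lay between 0.671 and 6.04 CPM, with log2 fold changes of -0.42 and -0.09 (adjusted p = 0.063 and 0.723).

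**Figure D5:**
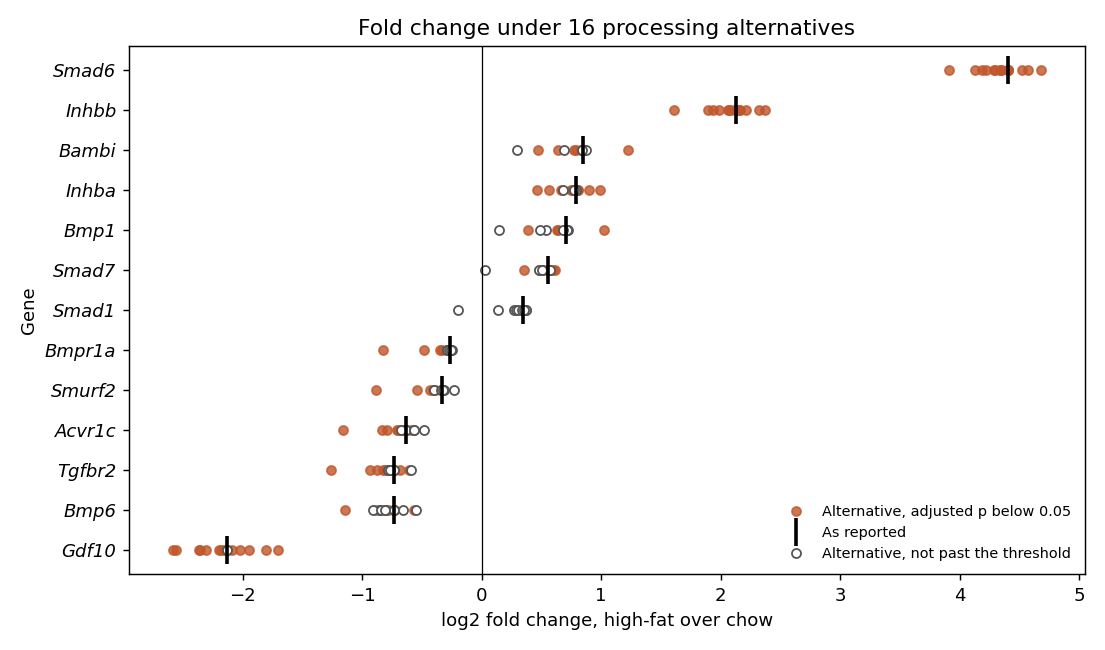
Log2 fold change of the called members in the reported fit and in each of the 16 alternative settings (filled where the adjusted p was below 0.05, open otherwise). The points of Smad6 (3.91 to 4.68), Inhbb (1.61 to 2.37) and Gdf10 (-2.59 to -1.70) stay far from 0, and those of Smad1 cross it.

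Of 72 further pathway genes listed for the fit, 60 were tested, with 9 higher (15%), 7 lower (11.7%) and a median log2 fold change of 0.12, beside the 14.9% and 8.78% of all genes. Among the genes of ligand processing and latency 2 of 12 rose and 3 fell. Furin, the convertase that cleaves pro-forms of TGF-beta and activin, measured 134.6, 134 and 138 CPM in high-fat and 74.7 and 85.7 CPM in chow libraries (log2 fold change 0.75 ± 0.09, adjusted p = 0.00235). Itgav, an integrin subunit that releases TGF-beta from its latent complex, rose as well (0.76, adjusted p = 0.012), whereas the latency protein Ltbp1 (-0.77, 0.0157) and the convertase Pcsk6 (-0.39, 0.0171) fell. Calls ended for Ltbp1 without high-fat replicate 2 and chow replicate 1 (0.057 and 0.0773) and for Pcsk6 without high-fat replicates 1 and 2 (0.0579 and 0.0689).

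Of 15 extracellular modulators, 2 rose (13.3%) and 3 fell (20%), beside 14.9% and 8.78% of all genes. Dcn, the proteoglycan decorin, which binds TGF-beta, measured 4.39, 2.94 and 6.81 CPM in high-fat and 60.9 and 21.2 CPM in chow libraries (-2.75 ± 0.45, adjusted p = 0.00725), and it is also on the fibroblast list. Fstl1, a secreted follistatin-like glycoprotein, measured 4.68, 5.71 and 5.53 CPM in high-fat and 16.96 and 11.8 CPM in chow libraries (-1.27 ± 0.17, adjusted p = 0.00396). Of the risers, the BMP modulator Twsg1 had a fold change of 0.50 (adjusted p = 0.0332) and Wfikkn1, a secreted antagonist of myostatin and Gdf11, 0.76 (0.023). Without high-fat replicates 2 and 3 and chow replicate 1 neither passed (Twsg1 0.109, 0.102 and 0.0993, Wfikkn1 0.0751, 0.0744 and 0.105), and Twsg1 also did not without high-fat replicate 1 (0.0759).

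Among 6 further receptors and co-receptors, Igsf1, an immunoglobulin superfamily membrane protein, rose (0.62, adjusted p = 0.0125) and Eng, the endothelial co-receptor endoglin, fell (-0.50, 0.037). Igsf1 did not pass without chow replicate 1 (0.0539), nor did Eng without high-fat replicates 1 and 3 (0.0919 and 0.109) or chow replicates 1 and 3 (0.0855 and 0.104). Of 27 intracellular partners, 4 rose (14.8%, beside 14.9% of all genes) and 0 fell. Crebbp, the acetyltransferase that SMADs recruit, measured 97.5, 101.3 and 124 CPM in high-fat and 38.4 and 63.6 CPM in chow libraries (1.10, adjusted p = 0.0128). The SMAD anchor Zfyve9 (0.49, 0.00886), the phosphatase subunit Ppp1r15a (0.39, 0.0214) and the ubiquitin ligase Rnf111 (0.38, 0.0357) rose by less. Without high-fat replicates 1, 2 and 3, calls ended for Ppp1r15a (0.0735, 0.06 and 0.0733) and Rnf111 (0.0971, 0.11 and 0.0886), and also without chow replicate 3 for Ppp1r15a (0.0508) and without chow replicate 1 for Rnf111 (0.123).

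Textbook TGF-beta targets outside the 65 genes were lower more often than higher. Of 14 tested, 1 rose (7.14%) and 6 fell (42.9%), with a median log2 fold change of -0.73, against 14.9% higher and 8.78% lower and a median of 0.05 over all genes. Junb, an AP-1 factor and immediate early gene, measured 16.1, 14.0 and 20.48 CPM in high-fat and 45.8 and 33.8 CPM in chow libraries (-1.19, adjusted p = 0.0059). Ctgf, a matricellular growth factor, measured 5.86, 6.48 and 8.49 CPM in high-fat and 13.8 and 14.5 CPM in chow libraries (-0.95, adjusted p = 0.00816). Both were clearly separated between the diets and kept their calls when any library was left out. The smooth muscle actin Acta2 (-0.82, 0.0153) and the collagens Col3a1 (-1.41, 0.0141), Col1a2 (-1.77, 0.0164) and Col1a1 (-1.89, 0.0243) fell too. These 3 collagens are on the fibroblast list, whose sum was lower in the same libraries. The cell cycle inhibitor Cdkn2b rose, with 6.02, 6.65 and 5.62 CPM in high-fat and 3.58 and 3.80 CPM in chow libraries (0.60, adjusted p = 0.0228). Without chow replicate 1 the calls of Acta2, Col3a1, Col1a2, Col1a1 and Cdkn2b ended (0.0798, 0.0683, 0.0819, 0.121 and 0.0894). Those of Col3a1, Col1a2, Col1a1 and Cdkn2b ended without high-fat replicate 2 (0.051, 0.0584, 0.0728 and 0.0792), those of Col1a1 and Cdkn2b without high-fat replicate 1 (0.068 and 0.0629), and those of Acta2 and Cdkn2b without high-fat replicate 3 (0.0514 and 0.0529).

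The scaling moved the genes of these further lists as it moved the members. With the reduced library size, the log2 fold change was 0.19 for Furin (adjusted p = 0.0786), 0.19 for Itgav (0.248), 0.08 for Igsf1 (0.572) and 0.13 for Cdkn2b (0.446), so their calls ended. Calls also ended there for Twsg1 (-0.0674, 0.646), Zfyve9 (-0.0638, 0.548), Ppp1r15a (-0.16, 0.167) and Rnf111 (-0.17, 0.143), whose signs turned. Crebbp (0.54, 0.0493) and Wfikkn1 (0.50, 0.0385) still passed, and so did the listed genes that fell, from -0.95 for Pcsk6 to -3.27 for Dcn. Less the median of all genes, the 8 that lost their calls lay between 0.25 (Rnf111) and 0.62 (Itgav). Of these 21 genes, 20 lost their calls with no filter and 13 with the acinar covariate.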

How the data were processed

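Islet RNA, extracted with Trizol per the labels' protocols, was sequenced and processed with Partek, per the submitters' processing notes. No aligner, genome build, strand setting or library kit is given in the sources used here. The deposited signal is CPM plus 1, as read from the values: each column has a lowest value of 1 and the low values fall on steps of 1 read. Subtracting 1 gave CPM. The gene rows did not sum to the same total in each library. Their sums were 963615, 832416 and 879301 CPM in high-fat and 841705 and 674482 CPM in chow libraries, and the reason is not given. Steps implied 23.6, 35.0 and 23.4 M reads in the high-fat libraries and 18.7 and 24.6 M reads in chow replicates 1 and 3, and 3 reads correspond to 0.0858 to 0.16 CPM, which covers counting error only. Whole reads were not recovered, since 65.0% to 70.4% of the values worth up to 20 reads were whole within 0.1, so no count model was used. Replicates were numbered in deposit order. Chow replicate 2 equalled the mean of chow replicates 1 and 3 in 48321 of 48321 rows and was left out.

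High-fat and chow libraries were compared with limma 3.58.1 (R 4.3.3) (log2(CPM + 1), trended variance prior) over the 16939 genes that averaged at least 0.5 CPM, with Benjamini-Hochberg adjustment over all of them and a threshold of 0.05. Fold changes on this scale understate those of low genes. Exon lengths, overlaps and shared words came from GENCODE M21, in which 65 members matched a symbol, and promoters from RefSeq on GRCm38.p6. In GENCODE M21, 21 members have an exon that overlaps another gene.

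Members and gene lists were chosen with earlier results of these data known. The text names every called member, in each role the member with the highest CPM per kilobase and the one with the smallest p, and of each further pathway list the 4 called genes with the smallest p. Members outside this rule are given by range and count. The called TGF-beta targets, Gdf15, Bmp15, Fst, Nog, Grem1, Smad3, Smad9 and the genes set beside Smad6 were picked after their values were seen. Alternatives were other scalings and library sizes, filters and added constants, all 6 columns, no variance trend, the acinar score (mean log2 level of the acinar genes) as a covariate, and leaving out each replicate.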

Additional observations from a re-analysis of the deposited data

How the results depend on the processing

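Depth limits the members below 0.5 CPM, where single reads decide a value. Of the 13 called members, Smad6 and Inhbb passed in all 16 settings. With no trend in the variance prior, calls ended for Bmp1 (limma adjusted p = 0.0536), Bmp6 (0.0513), Bmpr1a (0.0958), Smad1 (0.0607) and Smurf2 (0.0793). Over all genes that setting called 1994 higher and 1289 lower. The members called numbered 7 higher and 6 lower. They became 3 and 32 with the reduced library size (no acinar or insulin genes in it), 2 and 0 with no filter, and 2 and 1 with an acinar covariate. The lower count was 13 with all 6 columns and 12 with a library size of protein-coding genes less the acinar and insulin ones, a setting added after seeing the data. Leaving out 1 replicate gave 3 to 8 higher and 1 to 6 lower. The other pathway genes called numbered 9 higher and 7 lower. In that order of settings, their counts were 2 and 33, then 1 and 0, then 2 and 5. The counts were 15 and 11 for all 6 columns and 5 and 12 for protein-coding genes. They were 5 to 14 and 4 to 6 when a replicate was left out. For all genes (2524 and 1487), they were 770 and 9168, then 558 and 373, then 1037 and 644, with 4224 and 2828 for all 6 columns and 1315 and 3056 for protein-coding genes, and 1167 to 2969 and 682 to 1415 when a replicate was left out. Leaving out a library, taking more names into the adjustment and adding a column each change the test itself. With all 6 columns, an average of the other chow columns enters as if it were a further replicate. The p-values of that setting are therefore too small, and its counts are no measure of the diets. Why the counts moved in the other settings was not tested.

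Higher genes made up 62.9% of all calls, 50.7% under median-ratio scaling (1995 higher, 1943 lower), 52.3% under TMM (1987, 1810), 7.75% with the reduced library size and 30.1% with protein-coding genes. Over all genes the median of 0.05 moved to -0.01, -0.001, -0.43 and -0.13 in these 4 settings, and that of the members, -0.10, to -0.16, -0.15, -0.58 and -0.29.

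Log2 fold changes turned sign for these genes, for which no cause was tested. With the reduced library size they were -0.16 for Chrd, -0.37 for Id1, -0.48 for Inha, -0.49 for Ski, -0.20 for Smad1, -0.55 for Smad4, -0.54 for Smad5, -0.44 for Tgfbr3, -0.0674 for Twsg1, -0.0638 for Zfyve9, -0.16 for Ppp1r15a and -0.17 for Rnf111. With protein-coding genes they were -0.10 for Id1, -0.16 for Inha, -0.15 for Ski, -0.21 for Smad4, -0.19 for Smad5 and -0.0931 for Tgfbr3. Median-ratio scaling gave -0.037 for Inha, -0.0114 for Ski, -0.0705 for Smad4 and -0.0556 for Smad5, and TMM gave -0.0246, -0.057 and -0.0421 for Inha, Smad4 and Smad5. With the acinar score they were -0.22 for Inha, -0.0063 for Ski, -0.0523 for Smad4, -0.15 for Smad5 and 0.19 for Tgif1. Leaving out a replicate turned 8 of the 25 members followed through these settings, with ranges of -0.12 to 0.0833 for Acvr2a, -0.0576 to 0.16 for Id1, -0.11 to 0.13 for Inha, -0.0798 to 0.21 for Ski, -0.0219 to 0.0355 for Smad4, -0.16 to 0.20 for Smad5, -0.0716 to 0.31 for Tgfbr3 and -0.58 to 0.18 for Tgif1. No paired analysis was possible because the labels and columns carry no replicate numbers shared between the diets.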
